A study of Mus musculus with 5 samples.

Results

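The miR-181 family consists of 4 microRNAs read here as their 5p arms, mmu-miR-181a-5p, mmu-miR-181b-5p, mmu-miR-181c-5p, and mmu-miR-181d-5p, written below without the species prefix. The members were taken by their names, with earlier results of these data known, and these 4 were found among the 1247 mouse miRNAs on each array. Kidney tissue of male C57B/6 mice of 20 to 25 g was profiled on 1-colour Agilent miRNA arrays, with 1 array for each of 5 groups. The 4 injured groups had bilateral renal ischemia-reperfusion injury (IRI) with 30 min of warm ischemia and were taken 6, 12, 24, or 48 h after reperfusion. Sham mice were operated on with the renal vessels left unclamped, and the labels give them no time point. Every group carried the operation, and neither age nor a genetic modification is given. The labels state 8 mice per time point and leave unstated if an array held pooled RNA or that of 1 animal. The variation among mice was hence not measured and groups could not be tested against each other, and every ± below is an error within 1 array.

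MicroRNAs are short RNAs that guide an Argonaute protein to messenger RNAs, mainly by pairing of the seed near their 5′ end, and lower the output of those messages. The miR-181 miRNAs share 1 seed and so are expected to share many targets. They are best known from lymphocytes, where miR-181a tunes the sensitivity of T cell receptor signalling during thymic development, and from endothelium, where miR-181b restrains NF-κB signalling. Members of the BCL2 family, which govern apoptosis, are among the known targets in ischemic tissue. Messages and proteins were not measured on these arrays.

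The mature sequences are shown first because the family is defined by its seed and because its members differ at few other bases, which bears on how well an array can separate them. They are those of RefSeq for assembly GRCm38.p6, written 5′ to 3′ with the seed, bases 2 to 8, in capitals.

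miR-181a-5p: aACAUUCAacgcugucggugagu

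miR-181b-5p: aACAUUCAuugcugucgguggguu

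miR-181c-5p: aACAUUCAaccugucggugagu

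miR-181d-5p: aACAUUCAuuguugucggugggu

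These 4 were the only ones of the 1679 mature mouse names in the RefSeq table that carried this seed. The sequences were 22 to 24 bases long. miR-181a-5p and miR-181c-5p were closest to each other, with 1 single-base edit between them. miR-181b-5p and miR-181d-5p were 2 edits apart, and the other pairs were 4 or 5 edits apart.

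The members come from 6 hairpins in 3 pairs. Mir181a-1 and Mir181b-1 lie on the plus strand of chromosome 1, with the mature 5p sequences at chr1:137966468-137966490 and chr1:137966650-137966673 and 97 bases between the hairpins. They overlap no other gene of the annotation table. Mir181a-2 and Mir181b-2, at chr2:38852741-38852763 and chr2:38853845-38853868 on the plus strand, lie within the spans of the protein-coding gene Nr6a1 and of the lncRNA Nr6a1os, and their hairpins are 1019 bases apart. The table gives whole genes, so exon and intron were not told apart. Mir181d and Mir181c lie on the minus strand at chr8:84178759-84178781 and chr8:84178924-84178945, with 85 bases between the hairpins and no overlapping gene. Since both copies of miR-181a-5p give the same mature sequence, as do both copies of miR-181b-5p, the array could not separate the chromosome 1 pair from the chromosome 2 pair.

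Each member was read by a pair of probes with 20 spots each, 8 probes and 160 spots in all. The probes are complementary to the 3′ end of the miRNA and are shown because their length and overlap set how far a signal belongs to 1 member. The longer probe of each member was as follows, 5′ to 3′.

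miR-181a-5p, 14 bases: actcaccgacagcg

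miR-181b-5p, 14 bases: acccaccgacagca

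miR-181c-5p, 19 bases: actcaccgacaggttgaat

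miR-181d-5p, 17 bases: acccaccgacaacaatg

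The shorter probes of miR-181a-5p and miR-181b-5p lacked the last base of these, at 13 bases. None of the 4 probes of miR-181a-5p and miR-181b-5p reached the seed. The 14-base probe of miR-181a-5p had 2 mismatches to miR-181b-5p and 2 to miR-181c-5p, and its 13-base probe had 1 mismatch to either. The 14-base probe of miR-181b-5p had 1 mismatch to miR-181d-5p and 2 to miR-181a-5p, and its 13-base probe had 1 mismatch to either. Both miR-181d-5p probes had 1 mismatch to miR-181b-5p. The miR-181c-5p probes had at least 4 to any other member when aligned without gaps. They also matched miR-181a-5p over a run of 12 bases, and miR-181a-5p is 1 single-base edit from miR-181c-5p. The count without gaps therefore does not set miR-181c-5p apart from miR-181a-5p. How much a probe bound the other members was not tested, so a difference between members is described below only where their own probes gave it.

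The signals are background-subtracted fluorescence, and a probe counts as detected when its signal is above 3 times its scanner error. The arrays detected 219, 248, 279, 298, and 197 miRNAs in sham and at 6, 12, 24, and 48 h, with 182 on all arrays and 913 on none. Sham and 6 h were on 1 slide in 1 scan. The other arrays were on a second slide, with the 48 h array scanned separately, so slide, scan, and group cannot be told apart in any comparison of sham with 12, 24, or 48 h. The software multiplied probe signals by an effective feature size, which was its default of 0.6 on the sham, 6 h, and 48 h arrays. The default was not used at 12 and 24 h, where the size was 0.774 and 0.776, which made equal spots 1.29 times as high there. The 5 kidney tubule miRNAs taken as markers were detected on all arrays, as a kidney sample should show.

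miR-181a-5p and miR-181b-5p were the family members present above detection on every array, miR-181c-5p came and went, and miR-181d-5p was detected at 24 h only. At the level of single spots, before the feature size is applied, the longer probe of miR-181a-5p had a mean of 57.9 ± 5.27 (SD over 19 spots of 1 array) in sham. Its means were 60.4 ± 6.02 (19 spots) at 6 h, 71.3 ± 2.46 (14 spots) at 12 h, 106 ± 7.19 (20 spots) at 24 h, and 33.2 ± 4.43 (19 spots) at 48 h. The 24 h array stood highest and the 48 h array lowest, and sham and 6 h lay within 1 SD of each other.

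The longer probe of miR-181b-5p had spot means of 50.2 ± 5.31 in sham, 48.5 ± 5.92 at 6 h, and 50.1 ± 4.15 at 12 h (19 spots each), 75.1 ± 9.16 (20 spots) at 24 h, and 27.3 ± 4.71 (20 spots) at 48 h. Sham, 6 h, and 12 h were level within their SD, and again 24 h was the highest array and 48 h the lowest. The shorter probes were dimmer. That of miR-181a-5p had spot means of 17.4, 16.3, 20.9, 30.7, and 5.98 in sham and at 6, 12, 24, and 48 h, and it was not detected at 6 and 48 h. That of miR-181b-5p had 24.2, 24.5, 23.5, 36.5, and 9.57, and it was not detected at 48 h. At 6 h the shorter miR-181a-5p probe missed detection with a signal 2.99 times its error.

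The 19-base probe of miR-181c-5p had spot means of 21.1 ± 4.79 (20 spots) in sham, 24.5 ± 5.26 (19 spots) at 6 h, 16.7 ± 4.04 (20 spots) at 12 h, 35.2 ± 5.13 (19 spots) at 24 h, and 10.9 ± 4.71 (20 spots) at 48 h. It was detected in sham, at 6 h, and at 24 h, and missed detection at 12 h with a signal 2.89 times its error. miR-181c-5p was therefore undetected at 12 h by a small margin, and the 12 h spots still averaged above those of 48 h. The 18-base probe was detected on no array, with spot means from 3.96 at 48 h to 15.6 at 24 h.

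The 17-base probe of miR-181d-5p had spot means of 12.2 ± 3.64 in sham, 15.1 ± 4.86 at 6 h, and 15.9 ± 4.40 at 12 h, then 25.9 ± 4.52 at 24 h and 7.50 ± 1.89 at 48 h. Its signal passed detection at 24 h, at 3.24 times its error, and lay at 2.74, 2.79, and 2.76 times its error in sham and at 6 and 12 h. The 16-base probe was detected on no array, with spot means from 0.850 at 48 h to 11.3 at 24 h. The margin between detection and its absence was thus small, and at 2 times the error all 4 members would count as detected in sham and at 6, 12, and 24 h.

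**Figure D1:**
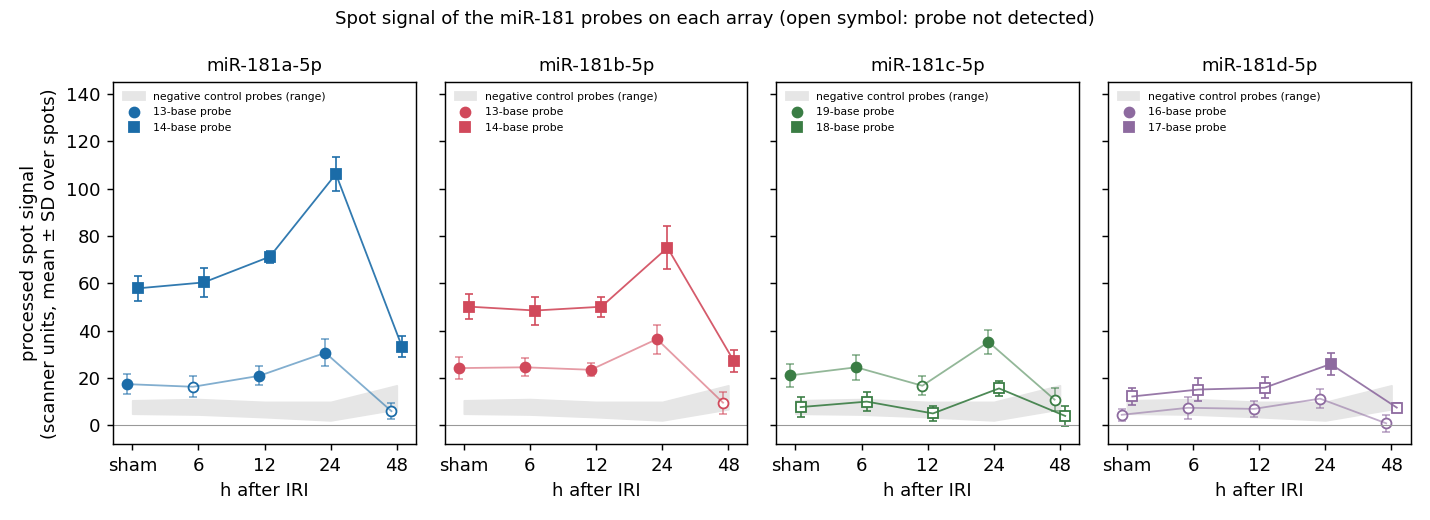
Mean background-subtracted spot signal (scanner units, linear axis) of the probes of each miR-181 member on the 5 arrays, with the SD over the spots of 1 array, open markers for probes not detected, and the range of the negative control probes shaded. All 8 probes were highest at 24 h and lowest at 48 h, and at 48 h 2 of them, the 14-base probes, lay above the negative controls.

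All 8 probes, whether detected or not, thus had their highest spot mean at 24 h and their lowest at 48 h. Of the 182 miRNAs detected throughout, 37.9% had this order in their summed detected probes, with the same feature size on all arrays. The order was thus frequent on these arrays. miR-181a-5p and miR-181b-5p, the 2 members in this set, both had it. The share is over miRNAs, and no share over single probes is given to set beside the 8. The 7 negative control probes, which match no miRNA, had mean spot signals of 4.93 to 10.5 in sham, 2.10 to 9.87 at 24 h, and 6.82 to 16.9 at 48 h. The number of miR-181 probes above the highest negative control was 6 in sham and at 6 and 12 h, 8 at 24 h, and 2 at 48 h. The negative controls were therefore highest on the array where the family was lowest, and their part in the family values was not tested.

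The level of a member was taken as the sum of its own detected probes, as written by the software. For miR-181a-5p this signal was 21.3 ± 2.42 (scanner error) in sham, 17.1 ± 2.26 at 6 h, and 33.6 ± 3.94 at 12 h, then 50.1 ± 5.63 at 24 h and 9.39 ± 1.88 at 48 h. For miR-181b-5p it was 21.0 ± 2.33, 20.7 ± 2.59, 26.9 ± 3.50, 40.8 ± 4.97, and 7.73 ± 1.81 at the same points. Both were highest at 24 h and lowest at 48 h. The sums at 48 h, and that of miR-181a-5p at 6 h, rest on 1 probe in place of 2.

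For miR-181c-5p the own-probe signal was 5.97 ± 1.35 in sham, 6.94 ± 1.63 at 6 h, and 12.9 ± 3.05 at 24 h, and miR-181d-5p had 9.47 ± 2.92 at 24 h. No ratio is given where an array had no detected probe. The family sum was 48.3 ± 3.62 for the sham array and 44.7 ± 3.80, 60.5 ± 5.27, 113 ± 8.62, and 17.1 ± 2.61 for the arrays of 6, 12, 24, and 48 h. Of all own-probe signal it made up 0.0741% for sham and 0.0579%, 0.0486%, 0.0826%, and 0.0228% for the later arrays in that order, so the family was a minor share of the array signal throughout. The sum holds 3, 3, 2, 4, and 2 detected members on the arrays in this order and moves with detection as well as with signal.

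At 6 h after reperfusion miR-181a-5p and miR-181b-5p showed little difference from sham. The log2 ratio of the own-probe signals was −0.32 ± 0.25 for miR-181a-5p, −0.025 ± 0.24 for miR-181b-5p, and 0.22 ± 0.47 for miR-181c-5p. For miR-181a-5p the sum lost a probe at 6 h, and with its longer probe alone the ratio was 0.061 ± 0.26. The 182 miRNAs detected on all arrays had a median of 0.16. Of these, 19.2% reached a log2 ratio of at least 1 and 2.2% one of at most −1 at 6 h, and neither member did. This comparison had both arrays on 1 slide in 1 scan.

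At 12 h the unscaled log2 ratio over sham was 0.66 ± 0.24 for miR-181a-5p and 0.35 ± 0.25 for miR-181b-5p, against a median of 0.55 over the 182 miRNAs. With 1 feature size for all arrays, the values were 0.29 and −0.015, against a median of 0.18. On both scales miR-181a-5p lay above that median, by 0.11, and miR-181b-5p below it, by 0.19, and each is less than its scanner error. The direction of miR-181b-5p against sham was therefore set by the feature size. Neither member reached a log2 ratio of at least 1, as 30.8% of the 182 miRNAs did unscaled.

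On the 24 h array miR-181a-5p, miR-181b-5p, and miR-181c-5p had higher unscaled signals than in sham, as nearly all of the 182 miRNAs did. The unscaled log2 ratios were 1.23 ± 0.23 for miR-181a-5p, 0.96 ± 0.24 for miR-181b-5p, and 1.11 ± 0.47 for miR-181c-5p. A ratio of at least 1 was reached by 1 of the 2 members detected on all arrays, and by 51.1% of the 182 miRNAs, of which 99.5% were above sham. The median was 1.03, so the distances of the members from it were 0.20, −0.077, and 0.078, all within the scanner error. With 1 feature size the ratios were 0.86, 0.59, and 0.74, against a median of 0.66, and 170 of the 182 miRNAs were above sham.

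The 4 spike-in RNAs, added from outside the kidney, give another scale. Relative to sham their geometric mean was higher by 0.069, 1.05, 1.09, and 1.04 on the log2 scale at 6, 12, 24, and 48 h. The single spike-ins ranged from −0.0013 to 0.16 at 6 h and from 0.70 to 1.68 at 12 h. At 24 h they ranged from 0.61 to 1.58 and at 48 h from 0.63 to 1.28, so from 12 h on this scale is a rough one. After division by the geometric mean, the log2 ratio over sham at 24 h was 0.14 for miR-181a-5p and −0.13 for miR-181b-5p. The median over the 182 miRNAs was −0.056. At 12 h it was −0.39 and −0.70, with a median of −0.50. The direction against sham thus depended on the scale for both members at 12 h and for miR-181b-5p at 24 h, and with quantile normalization, where it was −0.14, also for miR-181a-5p at 24 h. The distance from the median miRNA is not changed by a factor common to an array.

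At 48 h miR-181a-5p and miR-181b-5p had their lowest signals, below sham on every scale used for the own probes. The unscaled log2 ratio over sham was −1.18 ± 0.33 for miR-181a-5p and −1.44 ± 0.37 for miR-181b-5p, or 0.441 and 0.368 times the sham signal. Both members reached a ratio of at most −1, which 8.24% of the 182 miRNAs did. The median of the 182 was −0.23, with the middle of the distribution from −0.53 to 0.25, so the members lay 0.95 and 1.21 below it. Of the other miRNAs in this set, 10 had a lower ratio than miR-181a-5p and 6 had a lower one than miR-181b-5p.

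Part of this size came from probes that dropped out. At 48 h the shorter probes of both members were no longer detected, and 10.4% of the 182 miRNAs had fewer detected probes at 48 h than in sham. When each miRNA was read with the probes detected on all arrays, the log2 ratio over sham was −0.80 ± 0.34 for miR-181a-5p and −0.88 ± 0.39 for miR-181b-5p. Neither then reached −1, as 4.95% of the 182 miRNAs did. The members lay 0.60 and 0.67 below the median of −0.20 on this reading, and 17 and 12 of the other miRNAs were lower. A distance of at least 0.5 below the median was found for both members by either reading, and for 14.3% of the 182 miRNAs by all detected probes and 13.2% by matched probes.

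The dimmer probes were also lower at 48 h than in sham at the level of spots. From sham to 48 h the log2 ratio of the spot means was −1.54 for the shorter miR-181a-5p probe, −1.34 for the shorter miR-181b-5p probe, −0.96 for the 19-base miR-181c-5p probe, and −0.70 for the 17-base miR-181d-5p probe. At 48 h these spot means lay within or below the range of the negative controls, so they are a description of spots and not of detected miRNAs. After division by the spike-ins, which were higher at 48 h than in sham, the ratios of miR-181a-5p and miR-181b-5p over sham were −2.22 and −2.48, with a median of −1.27.

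**Figure D2:**
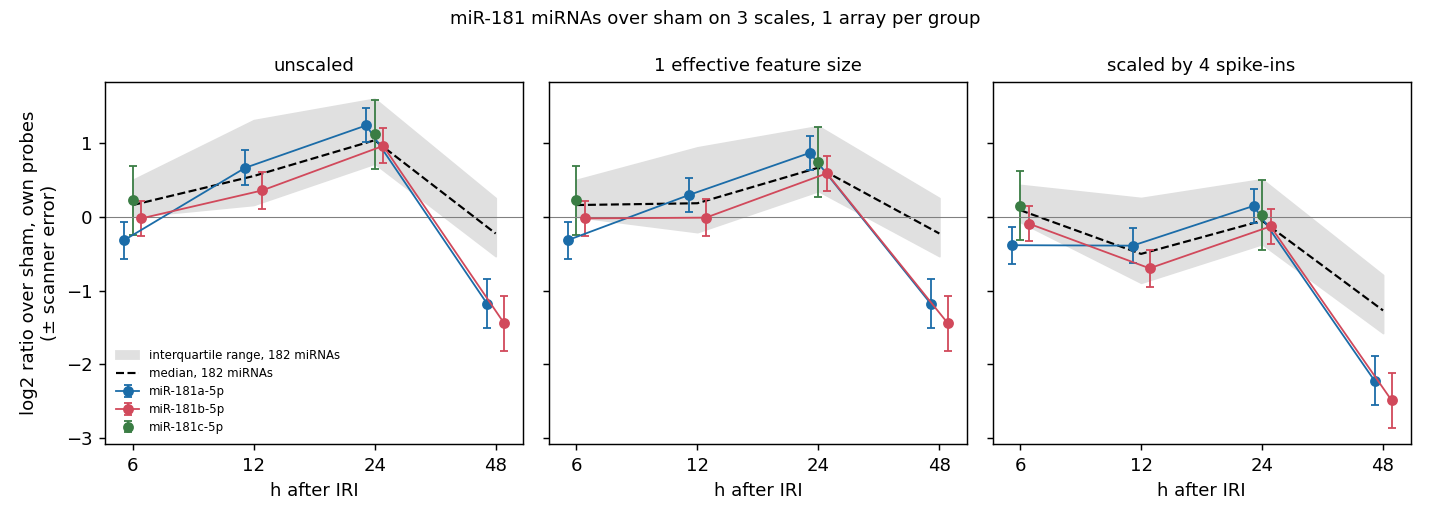
Log2 ratio over sham of miR-181a-5p, miR-181b-5p, and, where detected, miR-181c-5p at 6, 12, 24, and 48 h on each scale (unscaled, 1 feature size, divided by the spike-ins), with the scanner error as bars and the median (dashed) and interquartile range (shaded) of the 182 miRNAs detected on all arrays. The members sit near the median at 12 and 24 h on each scale, and miR-181a-5p and miR-181b-5p lie 0.95 and 1.21 below it at 48 h.

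From 6 to 12 h, across slides, the unscaled log2 ratio was 0.98 ± 0.25 for miR-181a-5p and 0.38 ± 0.26 for miR-181b-5p, a difference of 0.60 ± 0.36 that is larger than its scanner error. The miR-181a-5p sum held 1 probe at 6 h and 2 at 12 h, and with the longer probes alone the difference was 0.19 ± 0.40. On the sums of detected probes, the later steps were close to each other in both members. At 48 h these sums had lost the shorter probe of both members. With the longer probes alone, the difference from 24 to 48 h was −0.22 ± 0.52. From 12 to 24 h, on arrays of 1 slide and 1 scan, the log2 ratio was 0.57 ± 0.23 for miR-181a-5p and 0.60 ± 0.26 for miR-181b-5p. The median was 0.46 and 80.2% of the 182 miRNAs were above 0, so the members stood 0.11 and 0.14 above the median. The 24 and 48 h arrays were on 1 slide in separate scans, so scan and group cannot be told apart between them. From 24 to 48 h the log2 ratio was −2.41 ± 0.33 and −2.40 ± 0.38, against a median of −1.24, and 8 and 9 of the others were lower. With 1 feature size these values were −2.04, −2.03, and −0.87, and with probes detected on all arrays as well they were −1.68, −1.46, and −0.81. A log2 ratio of at most −1 was reached by both members on each of these readings, as by 65.4% of the 182 miRNAs unscaled, 42.3% with 1 feature size, and 37.4% with matched probes.

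Against sham, the 2 members detected on all arrays differed from each other by less than the scanner error. The log2 ratio of miR-181a-5p minus that of miR-181b-5p over sham was −0.29 ± 0.35 at 6 h and 0.31 ± 0.34, 0.28 ± 0.33, and 0.26 ± 0.50 at 12, 24, and 48 h. From 24 to 48 h the difference was −0.015 ± 0.50. None of these 5 differences exceeded its scanner error, unlike that from 6 to 12 h given above. miR-181c-5p could be set against them at 6 and 24 h, where the ratio of miR-181a-5p minus that of miR-181c-5p was −0.54 ± 0.53 and 0.12 ± 0.53. These scanner errors ran from 0.33 to 0.53 on the log2 scale, and a difference smaller than its own error would not have shown. The probes also overlap in sequence, as given above. The spots of the longer probes had a smaller error, given here as the standard error over spots. At 12 h the log2 ratio of their means over sham was 0.30 ± 0.033 for miR-181a-5p and −0.0012 ± 0.044 for miR-181b-5p. At 24 h it was 0.88 ± 0.037 and 0.58 ± 0.053. At 6 h it was 0.061 ± 0.045 and −0.048 ± 0.053, and at 48 h −0.80 ± 0.053 and −0.88 ± 0.066. Spots of 1 array are not replicates of a group, so this error cannot show that the members changed differently. With the scanner error, the difference between these probes was 0.30 ± 0.38 at 12 h and 0.29 ± 0.38 at 24 h. It was 0.11 ± 0.39 at 6 h and 0.075 ± 0.52 at 48 h, and each lay within its scanner error.

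The total gene signal that the software also wrote did not follow the own probes on 3 arrays. For miR-181a-5p it was 245.6 at 6 h, where its own probe gave 17.1, and 172 at 48 h, where its own probe gave 9.39. The excess of 228.6 at 6 h equalled the totals of 3 other features on that array within 1%, the nearest being miR-17-3p, and that of 162.6 at 48 h also equalled 3, the nearest being miR-16-5p. For miR-181b-5p at 48 h the total was 179.7 against an own signal of 7.73, and the excess equalled 2 totals, the nearest being that of miR-181a-5p. Where several totals matched, the one carried over was not identified. For miR-181d-5p at 24 h the total was 22.4 against 9.47, and the excess equalled the total of miR-181c-5p. In each case the first probe of the member was not detected, and the excess made up 57.6% to 95.7% of the total.

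On the total gene signal miR-181a-5p would therefore stand above sham at 6 h, by 3.53 on the log2 scale, and at 48 h, by 3.01, and miR-181b-5p at 48 h by 3.10. The brightest miR-181 spot mean at 48 h, 33.2, was below the 57.9 of the same probe in sham. The own-probe signals were used here for this reason.

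**Figure D3:**
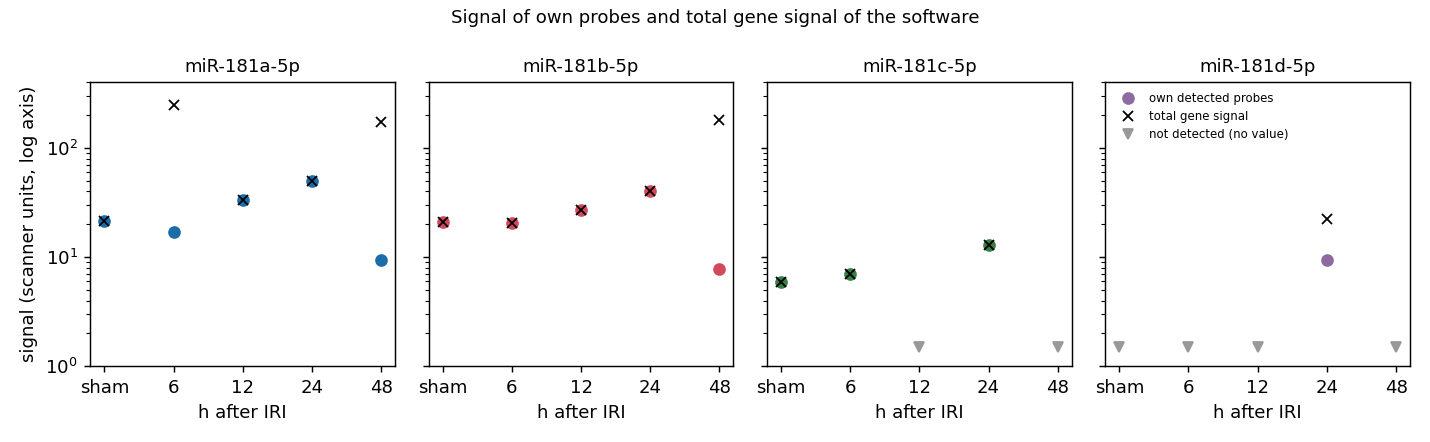
Own-probe signal and total gene signal (scanner units, log axis) of the miR-181 members on the 5 arrays, with grey triangles where no probe was detected. Both signals were equal except for miR-181a-5p at 6 and 48 h, miR-181b-5p at 48 h, and miR-181d-5p at 24 h, where the total gene signal was higher than the own-probe signal.

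The opposite arms of the same hairpins were on the array as 6 miRNAs, miR-181a-1-3p, miR-181a-2-3p, miR-181b-1-3p, miR-181b-2-3p, miR-181c-3p, and miR-181d-3p. These are the passenger strands, which are usually degraded after the hairpin is processed. None of the 6 was detected on any array. The family was thus read through its 5p arms alone, and the arms that tell Mir181a-1 from Mir181a-2 did not pass the detection limit.

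Other families whose members share a seed gave values closer to the median at 48 h. The let-7 family, known for its part in differentiation, had a median distance of −0.11 from the median miRNA over 8 members, with a range from −0.28 to 0.35. The miR-30 family, abundant in kidney tubules, had −0.28 over 5 members, with a range from −0.53 to 0.17. The 2 miR-181 members, at −0.95 and −1.21, lay below both ranges. With matched probes they were at −0.60 ± 0.34 and −0.67 ± 0.39. The lowest let-7 member, at −0.31, and the lowest miR-30 member, at −0.55, were then higher by less than these scanner errors. In sham miR-181a-5p and miR-181b-5p had signals of 21.3 and 21.0, against 355 to 3162 for let-7 and 97.4 to 1279 for miR-30. The part of brightness in these distances was not tested. At 24 h the let-7 members ranged from −0.64 to −0.10 and the miR-30 members from −0.30 to 0.48, which covers the values of miR-181a-5p and miR-181b-5p between them. No test stands behind these orders.

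**Figure D4:**
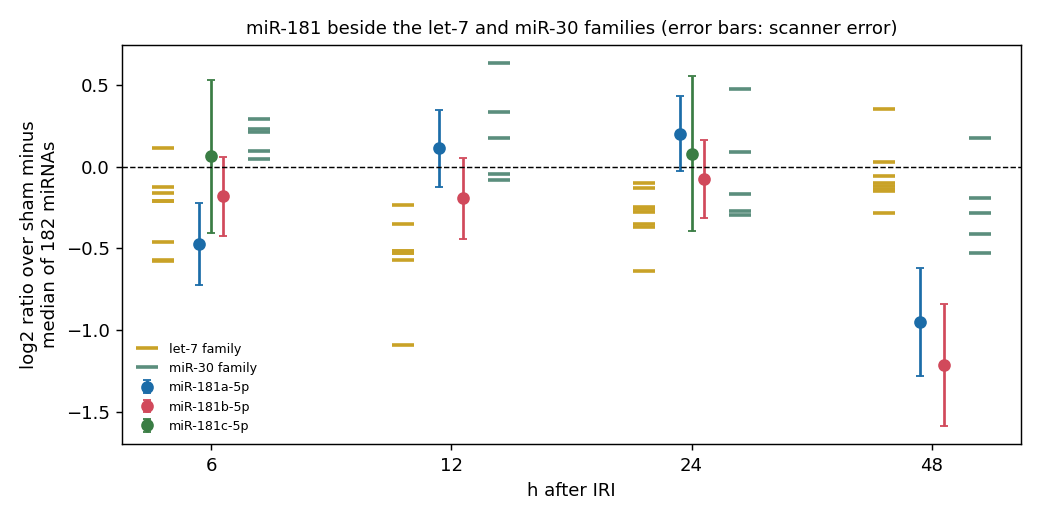
Log2 ratio over sham less the median over the 182 miRNAs, at 6, 12, 24, and 48 h, for the miR-181 members (points with scanner error) and for each let-7 and miR-30 member (dashes). At 48 h both miR-181 members lie below the ranges of the other families.

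The miRNAs with the pattern most like a member were found by the root mean square difference of the 4 log2 ratios over sham, with 1 feature size, among the 180 other miRNAs detected on all arrays. For miR-181a-5p the nearest were miR-212-3p at 0.10, miR-5107-5p at 0.29, and miR-218-5p at 0.32. For miR-181b-5p they were miR-202-3p at 0.28, miR-185-5p at 0.30, and miR-378d at 0.30. The 2 members lay 0.29 from each other, and in either list 1 miRNA was closer. miR-212-3p, the nearest of all, had log2 ratios of −0.40, 0.46, 0.78, and −1.15 at 6, 12, 24, and 48 h. The distances rest on sums of detected probes, and the miR-181a-5p sums at 6 and 48 h, with ratios of −0.32 and −1.18, had lost a probe. With the probe detected on all arrays its ratios there were 0.061 and −0.80, and how near miR-212-3p would then lie was not tested. The points share their arrays, and the likeness is a description over 4 time points.

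Whole kidney holds many cell types, and in such tissue fewer cells of a type and less of a miRNA per cell cannot be told apart. The summed unscaled signal of the 5 kidney tubule miRNAs was 2617 for sham and 3028, 3469, 4157, and 1949 for the arrays of 6, 12, 24, and 48 h, so it was also highest at 24 h and lowest at 48 h. With 1 feature size it was 2688 at 12 h and 3214 at 24 h, and the highest and lowest arrays were the same. Their median distance from the median miRNA at 48 h was −0.19, with a range from −0.27 to 0.42. Of the 6 leukocyte miRNAs, 3 or 4 were detected on each array, not always the same ones. Their summed signal was 47.8 in sham and, after injury, 61.2 to 110.5 unscaled and 54.7 to 85.7 with 1 feature size. miR-142-5p and the lymphocyte miRNA miR-150-5p were detected on no array. miR-155-5p and miR-223-3p, the 2 leukocyte miRNAs detected on all arrays, were 0.72 and 0.75 above sham at 48 h on the log2 scale, where miR-181a-5p and miR-181b-5p were below it. Of the same list, miR-142-3p was 0.13 above sham at 48 h, and miR-146a-5p, with a signal of 9.63 in sham, was detected on every array but that of 48 h. The endothelial miR-126-3p was at −0.50 over sham on the log2 scale at 48 h, 0.27 below the median, and its companion miR-126-5p was detected in sham only. The red blood cell miRNA miR-451a had a signal of 159 for sham and 500.3, 234, 538, and 105 for the later arrays in order of time, and miR-144-3p was detected on no array. The part of these cell types in the miR-181 values was not tested.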

How the data were processed

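The authors deposited, for each array, scanner output with intensity values written by Agilent Feature Extraction 10.7.1.1, the version in the submitters' processing notes, per spot, probe, and miRNA, background-subtracted, detrended, and not normalized between arrays. A second table, of processed log2 values, was deposited as well. How it was made is not given in the sources used here, its scale and centring stay unknown, and it served as an alternative only. Groups came from the sample labels.

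Control spots and the software's outlier spots were left out. The signals of the own probes above 3 times their scanner error were summed once per probe, with errors added in squares. Log2 ratios were computed unscaled, as the study's methods take raw signal. They were computed again with 1 effective feature size, divided by the 4 spike-ins, and minus the median of the 182 miRNAs detected on all arrays. Which of the software's signals the study took is not stated, so its measure may differ from the own-probe sums. The study's blank value of 0.1 is also what the total gene signal held for undetected members. With 1 array per group no test, p-value, or correlation was computed, and precision is limited by how few arrays there were.

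The named miRNAs were the members, their opposite arms, the 3 nearest patterns of each member detected on all arrays, 2 comparison families, and marker lists. The members and lists were chosen with earlier results of these data known. Sequences and positions came from RefSeq tables for GRCm38.p6, which held the mature sequences of all 4 members and 6 opposite arms. The probe positions in the files lay inside these spans for miR-181a-5p and miR-181b-5p, and not for the other members. The alternatives were other scalings (75th percentile, spike-ins, quantile), normexp with an offset of 50, mean spot signals, the total gene signal, the processed table, other detection rules, and other probe sets. Scripts were tested on simulated data. Tools were limma 3.58.1 in R 4.3.3 for the alternatives, and otherwise pandas 2.3.3 with numpy 2.4.6 in Python 3.11.15, and matplotlib 3.10.9 for plots. Messenger RNA, qRT-PCR, and histology were not analysed here.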

Additional observations from a re-analysis of the deposited data

How the results depend on the processing

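Values are log2 ratios over sham of the family sum (F) and of miR-181a-5p, miR-181b-5p, and miR-181c-5p (a, b, c), and "distance" means minus the median. The lower signal at 48 h kept its direction for F, a, and b under every alternative except the total gene signal, which holds more than the own probes. There F was 2.50 at 6 h, 1.38 at 24 h, and 2.86 at 48 h (distance 2.31, 0.45, and 3.03), a was 3.53 and 3.01 at 6 and 48 h (distance 3.34 and 3.18), and b was 3.10 at 48 h (distance 3.26). Directions at 12 and 24 h did change with the scale and with some other settings, and the cause was not tested. With the 75th percentile F was −0.41, −0.31, and 0.069 at 6, 12, and 24 h, b was −0.28 and −0.20 at 12 and 24 h, and c was −0.050 at 24 h. With the spike-ins F was −0.73, 0.14, and −2.54 at 12, 24, and 48 h, a was −0.39 at 12 h, and b was −0.70 and −0.13 at 12 and 24 h. With 1 effective feature size, and equally with mean spot signals, F was −0.043 and 0.86 and b −0.015 at 12 h. With normexp F was −0.21 and 0.55 at 12 and 24 h. With the processed table F was −0.85, −1.20, −0.50, and −1.08 at 6, 12, 24, and 48 h (distance −0.57, −0.62, and −0.27 at 6, 12, and 24 h), a −0.85 and −0.15 and b −1.12 and −0.54 at 12 and 24 h, and c −2.89 at 24 h. With quantile normalization F was −0.66, −1.12, −0.34, and −1.03 (distance −0.59, −0.11, and −1.01 at 12, 24, and 48 h), a −0.74 and −0.14, b −1.01 and −0.49, and c −1.24. Other probe sets changed the sums by construction. Without the detection filter F was 0.084 and −0.97 at 6 and 48 h (distance −0.073 and −0.76) and a 0.026 at 6 h. With the brightest probe F was −1.09 at 48 h (distance −0.89) and a 0.061 at 6 h. With the probes detected on all arrays, chosen after seeing the data, F was 0.54 and −0.84 at 12 and 48 h (distance 0.00039 and −0.63) and a 0.061 at 6 h. The distance of F was 0.36 at 24 h from the median of the brighter miRNAs, and −0.40 at 12 h and −0.026 at 24 h from that of the dimmer ones, also chosen after seeing the data. At 2 times the error, 4 members were detected at 12 h in place of 2, and 4 in place of 3 in sham and at 6 h. The other 43 values of F moved by less than their error (2 turned sign), as did 136 of single members (12 turned sign). Another 53 values of single members moved by more than their error, and 8 of these, whose own value was within its error, turned sign. No paired analysis was possible because a group was 1 array, which also left no replicate to omit. Signals near 3 times their error limit miR-181c-5p and miR-181d-5p.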
